A study of Mus musculus with 18 samples.

Results

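Skin with extra IKKα, a kinase of the NF-kB pathway, was compared with normal skin. The 12 back skin libraries of transgenic mice, 6 labelled N-IKKα and 6 labelled C-IKKα, were pooled and set against the 6 wild-type (WT) libraries, which are all 18 libraries of the series. The question was which genes move the same way wherever the extra IKKα sits. N-IKKα mice express exogenous IKKα in the nucleus of keratinocytes, C-IKKα mice express it in the cytoplasm, and WT mice carry neither. All were FVB mice aged 6 months, with 1 library of whole back skin per mouse, so keratinocytes were measured together with hair follicles, dermis, fat, muscle and immune cells. The promoter that drives each transgene, the number of founder lines and the animals' sex are not given in the labels. In whole skin, fewer cells of a type and less RNA per cell cannot be told apart.

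IKKα, encoded by Chuk, is a serine and threonine kinase. With its relative IKKβ and the scaffold NEMO it forms the cytoplasmic IKK complex, which marks the IκB inhibitors for degradation and so frees NF-kB transcription factors. It also drives the processing of the NF-kB2 precursor in the noncanonical pathway, and in keratinocytes it enters the nucleus, where it takes part in terminal differentiation without its kinase activity.

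Growing (anagen) hair follicles express hair keratins and cell division genes at high levels, so hair state entered the comparison as a covariate. The growing libraries were selected on measured values, over a list of genes of the hair shaft and its inner sheath. The list holds mostly keratins and keratin-associated genes, and also Lef1, Hoxc13, Msx2, Foxn1 and Padi3. Growing hair was read from a mean log2 level above 8 over this list. This held for WT 1 and 4, N-IKKα 8, 9 and 11 and C-IKKα 14, at 9.63 to 11.6, against 2.46 to 5.30 in the other 12. The growing share was 2 of 6 in WT and 4 of 12 in the transgenic libraries, so the covariate narrows errors without moving a pooled difference. Counted reads per library ran from 11.1 to 12.6 M in WT, 12.0 to 14.6 M in N-IKKα and 12.6 to 15.7 M in C-IKKα. By the Y-linked gene Ddx3y, 2 WT, 2 N-IKKα and 4 C-IKKα libraries were read as male, and all 6 growing libraries as female. Over 4 Y-linked genes, the WT libraries read as female held 10.1 to 113 normalized counts and the transgenic ones 0 to 13.9, against at least 3942 in those read as male.

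No gene passed the test in the pooled comparison, and 16 with low unadjusted p values are described further on. The promoters of 6 of them are shown, to put sequence beside the values, and were chosen after the values were seen. They are 4 genes with higher values in transgenic skin (Cpne4, Sox12, Chaf1b and Cyp27b1) and 2 with lower values (Srxn1 and Dusp10). Each window runs from 250 bases before to 50 bases after the transcript start, read 5′ to 3′ on the gene's strand, from RefSeq on GRCm38.p6. For Cpne4 the first of 2 annotated starts is shown. Capitals mark matches, on either strand, to a kB motif (GGGNNNTTC), an AP-1 motif (TGANTCA), the core of the antioxidant response element (TGACNNNGC) or an E-box (CACGTG).
Cpne4, chr9:104569405-104569704, plus strand: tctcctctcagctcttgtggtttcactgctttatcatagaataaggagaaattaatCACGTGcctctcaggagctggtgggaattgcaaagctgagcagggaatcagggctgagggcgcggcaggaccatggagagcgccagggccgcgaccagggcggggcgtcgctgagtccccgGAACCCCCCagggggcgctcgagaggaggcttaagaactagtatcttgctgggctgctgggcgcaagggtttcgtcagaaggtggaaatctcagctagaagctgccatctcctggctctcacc
Sox12, chr2:152397997-152398296, minus strand: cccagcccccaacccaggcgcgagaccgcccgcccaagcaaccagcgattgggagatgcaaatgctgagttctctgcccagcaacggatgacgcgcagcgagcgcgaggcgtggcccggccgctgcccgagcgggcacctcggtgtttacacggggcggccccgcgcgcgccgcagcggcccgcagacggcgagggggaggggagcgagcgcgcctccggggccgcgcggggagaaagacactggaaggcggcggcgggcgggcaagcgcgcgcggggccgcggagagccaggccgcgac
Chaf1b, chr16:93883651-93883950, plus strand: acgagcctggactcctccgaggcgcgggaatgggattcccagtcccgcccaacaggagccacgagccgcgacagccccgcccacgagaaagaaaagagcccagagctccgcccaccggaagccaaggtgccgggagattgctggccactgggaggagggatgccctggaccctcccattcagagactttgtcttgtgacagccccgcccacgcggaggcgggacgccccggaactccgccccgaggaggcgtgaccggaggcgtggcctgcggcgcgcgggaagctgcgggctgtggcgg
Cyp27b1, chr10:127047996-127048295, plus strand: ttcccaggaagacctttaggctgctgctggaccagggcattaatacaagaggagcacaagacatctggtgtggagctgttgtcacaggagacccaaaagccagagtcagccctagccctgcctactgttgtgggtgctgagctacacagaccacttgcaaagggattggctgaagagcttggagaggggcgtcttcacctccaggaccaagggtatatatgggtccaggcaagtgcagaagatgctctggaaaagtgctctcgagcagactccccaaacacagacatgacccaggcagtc
Srxn1, chr2:152105274-152105573, plus strand: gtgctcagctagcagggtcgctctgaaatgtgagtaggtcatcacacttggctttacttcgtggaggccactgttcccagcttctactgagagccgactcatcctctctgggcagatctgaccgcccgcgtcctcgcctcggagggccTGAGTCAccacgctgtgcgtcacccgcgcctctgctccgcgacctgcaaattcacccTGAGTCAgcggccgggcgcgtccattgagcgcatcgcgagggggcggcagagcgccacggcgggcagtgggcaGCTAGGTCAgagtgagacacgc
Dusp10, chr1:184034131-184034430, plus strand: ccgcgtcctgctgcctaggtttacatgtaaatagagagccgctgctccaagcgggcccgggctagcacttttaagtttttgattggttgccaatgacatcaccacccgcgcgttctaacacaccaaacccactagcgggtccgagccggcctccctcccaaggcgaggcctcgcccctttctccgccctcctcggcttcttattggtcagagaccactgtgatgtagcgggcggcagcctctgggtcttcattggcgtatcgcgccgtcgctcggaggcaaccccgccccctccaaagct
The Cpne4 window holds 1 kB match, at position 178 of the window, and 1 E-box at position 57. The Srxn1 window holds 2 AP-1 matches, at positions 149 and 206, and 1 antioxidant response core at position 279. The other 4 windows hold none of these letters. Of 32851 RefSeq promoter windows of this length, 14.0% hold the kB motif, 7.81% the AP-1 motif, 12.4% the antioxidant response core and 7.15% the E-box. A match is a run of letters and says nothing on whether a factor binds there.

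Across 17667 genes tested, the pooled comparison called no gene. By limma with the hair covariate, 0 genes (0%) were higher and 0 (0%) lower at an adjusted p below 0.05, and the smallest adjusted p was 0.13. At an unadjusted p below 0.05, 703 genes (3.98%) were higher and 487 (2.76%) lower, together 1190, where 5% of the genes tested is 883. On the same libraries edgeR called 0 genes and DESeq2 called 16 higher (0.0906%) and 7 lower (0.0396%). Among the higher ones, Ccl1, H2-T3, Elavl2, Pnoc, Sh2d7 and Gm48709 had no WT library at 10 or more normalized counts. They passed the filter only through the transgenic libraries. The 95% limits of the pooled change lay inside 2-fold in both directions for 15494 genes (87.7%), and the median standard error (SE) was 0.14 on the log2 scale. In the pooled fit, the p values measure the spread between mice together with any difference between N-IKKα and C-IKKα. That fit has no term for such a difference.

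The transgenes were then compared with WT one at a time, in a fit with 3 group means. C-IKKα skin had 138 genes called higher (0.781%) and 7 lower (0.0396%), while N-IKKα skin had 1 called higher (0.00566%) and 0 lower. No gene was called in both, whichever its direction. The direct comparison of N-IKKα with C-IKKα, which uses no WT library, called 123 genes (0.696%). At an unadjusted p below 0.05 in each single comparison, 142 genes were higher in both (0.804%) and 103 lower in both (0.583%). Both single comparisons share the 6 WT libraries, so these joint counts are a description. Of the 142 genes, 6 had no WT library at 10 or more normalized counts, and they passed the filter only through the transgenic libraries.

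**Figure D1:**
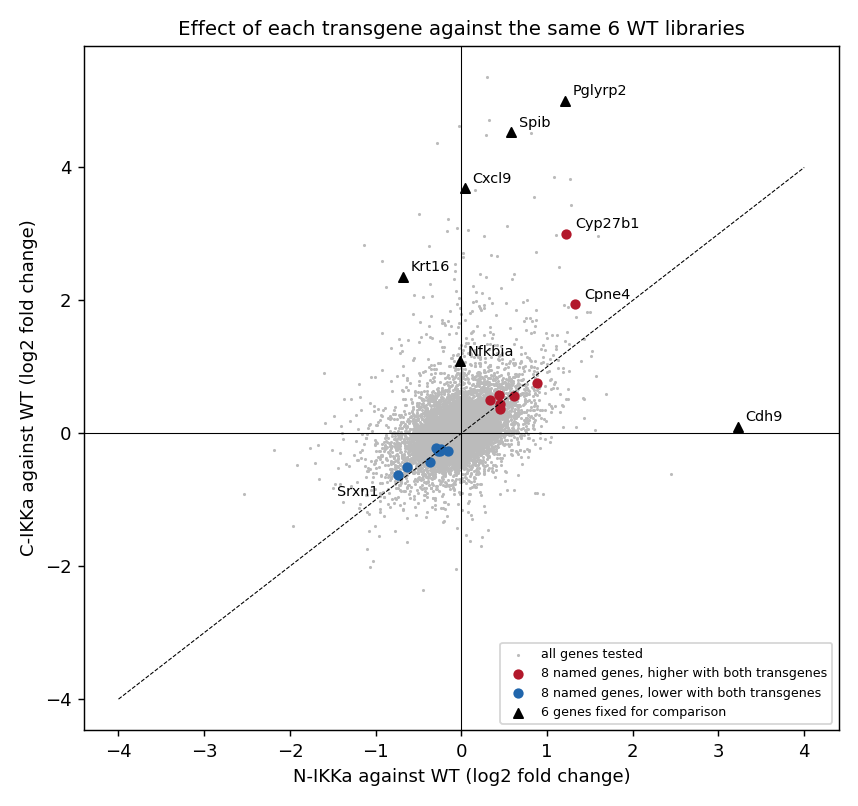
Each point is 1 of 17667 genes, with its log2 fold change against WT in N-IKKα skin (x axis) and in C-IKKα skin (y axis), and the dashed line marks equal values. Red and blue points are the 16 genes named for the shared effect, which lie near the line except Cyp27b1 and, less so, Cpne4, while Pglyrp2, Spib, Cxcl9 and Krt16 lie toward the C-IKKα axis and Cdh9 toward the N-IKKα axis. Both axes use the same WT libraries, so the tilt of the cloud is not a result.

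With no call to name, 8 genes per direction are described: those with the smallest pooled p that had the same sign and an unadjusted p below 0.05 against WT in each transgene and a mean of 50 or more where the gene was higher. They were thus chosen by these same values, which are given as a description. All 16 had the same sign within the 12 resting libraries and within the 6 growing libraries. Their adjusted p values ran from 0.13 to 0.487, and DESeq2 called 10 of the 16. N-IKKα and C-IKKα differed in 1 of the 16, Cyp27b1, and this call was lost in 13 of the 18 fits that left out 1 library.

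Among the higher genes, 4 act in the nucleus. Chaf1b (ENSMUSG00000022945.13) encodes a subunit of the chromatin assembly factor that loads histones onto newly copied DNA. Its normalized counts were 41.3 to 97.0 (median 66.4) in WT, 79.2 to 249.8 (median 135) in N-IKKα and 86.8 to 122 (median 103) in C-IKKα. In 9 of 12 transgenic libraries it lay above both growing WT libraries, the highest of WT, while N-IKKα 10 and C-IKKα 16 were among the 3 within the WT range. Pooled, the log2 fold change was 0.82 (SE 0.15, limma adjusted p = 0.181), with 0.89 in N-IKKα and 0.75 in C-IKKα.

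Sox12 (ENSMUSG00000051817.9), a SoxC transcription factor of progenitor cells, had counts of 116 to 217 (median 156) in WT, 168 to 398 (median 262) in N-IKKα and 199 to 289 (median 203) in C-IKKα. WT 4 was the highest WT library, 5 transgenic libraries lay above it, and N-IKKα 10 was the lowest transgenic one. The pooled log2 fold change was 0.59 (SE 0.10, limma adjusted p = 0.13), almost equal in the 2 groups at 0.62 in N-IKKα and 0.57 in C-IKKα. Tet1 (ENSMUSG00000047146.18), the dioxygenase that starts DNA demethylation, had counts of 115 to 169 (median 145) in WT, 167 to 261 (median 183) in N-IKKα and 173 to 283 (median 202) in C-IKKα. It came closest of the 16 to a clean separation: 11 of 12 transgenic libraries lay above every WT library, and N-IKKα 10 missed WT 2 by about 2 counts. Its pooled log2 fold change was 0.51 (SE 0.12, limma adjusted p = 0.487). Setbp1 (ENSMUSG00000024548.12), which binds the oncoprotein SET and has DNA-binding motifs, had counts of 1354 to 2476 (median 1441) in WT, 1585 to 3049 (median 2145) in N-IKKα and 1513 to 2429 (median 2291) in C-IKKα and a pooled log2 fold change of 0.42 (SE 0.10, limma adjusted p = 0.487). WT 4 lay above 9 of the 12 transgenic libraries, so these groups overlapped widely.

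Cpne4 (ENSMUSG00000032564.17), a copine that binds membrane lipid in the presence of calcium, had the smallest p of all genes. Its counts were 7.01 to 50.2 (median 17.9) in WT, 23.6 to 85.2 (median 50.1) in N-IKKα and 39.1 to 88.9 (median 71.2) in C-IKKα. WT 4 stood apart from the other WT libraries, at 50.2 against at most 21.2, and 7 transgenic libraries lay above it; all 12 lay above the other 5 WT libraries. The pooled log2 fold change was 1.63 (SE 0.28, limma adjusted p = 0.13), with 1.33 in N-IKKα and 1.94 in C-IKKα, and the difference between the transgenes was −0.61 (95% limits −1.27 to 0.05). Without WT 4 the gene was called (log2 fold change 1.86, limma adjusted p = 0.0351).

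Large2 (ENSMUSG00000040434.17), a glycosyltransferase that extends the matrix-binding sugar of dystroglycan, had counts of 235 to 444 (median 289) in WT, 316 to 559 (median 442) in N-IKKα and 339 to 481 (median 375) in C-IKKα. Only 4 transgenic libraries, all with growing hair, lay above WT 4, and the pooled log2 fold change was 0.45 (SE 0.10, limma adjusted p = 0.418). Ctnnd2 (ENSMUSG00000022240.11), a catenin of adherens junctions, had counts of 174 to 355 (median 290.3) in WT, 338 to 399 (median 369.6) in N-IKKα and 323 to 409.5 (median 373) in C-IKKα. Here the 12 transgenic libraries kept to a narrow band and WT 1 lay far below it, with 7 transgenic libraries above the highest WT library. It gave a pooled log2 fold change of 0.41 (SE 0.10, limma adjusted p = 0.487).

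Cyp27b1 (ENSMUSG00000006724.13) encodes the hydroxylase that makes the active form of vitamin D, which keratinocytes can do themselves. Its counts were 6.02 to 76.5 (median 11.6) in WT, 21.5 to 90.8 (median 50.1) in N-IKKα and 51.4 to 197 (median 129) in C-IKKα. The 2 growing WT libraries held 45.4 and 76.5 and the 4 resting ones at most 13.1, and every transgenic library lay above those 4. The pooled log2 fold change was 2.11 (SE 0.46, limma adjusted p = 0.418), but the 2 transgenes differed: 1.22 in N-IKKα and 3.001 in C-IKKα, a gap of −1.78 (SE 0.39, limma adjusted p = 0.0394). That call was also lost with no filter, without the hair covariate, among resting libraries and with GC adjustment, and it held without WT 4, 5 or 6 or C-IKKα 14 or 15. The pooled difference was 2.88 among resting and 0.58 among growing libraries. Its rise in C-IKKα passed the test on its own (limma adjusted p = 0.000241), and its difference in N-IKKα did not (limma adjusted p = 0.798).

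**Figure D2:**
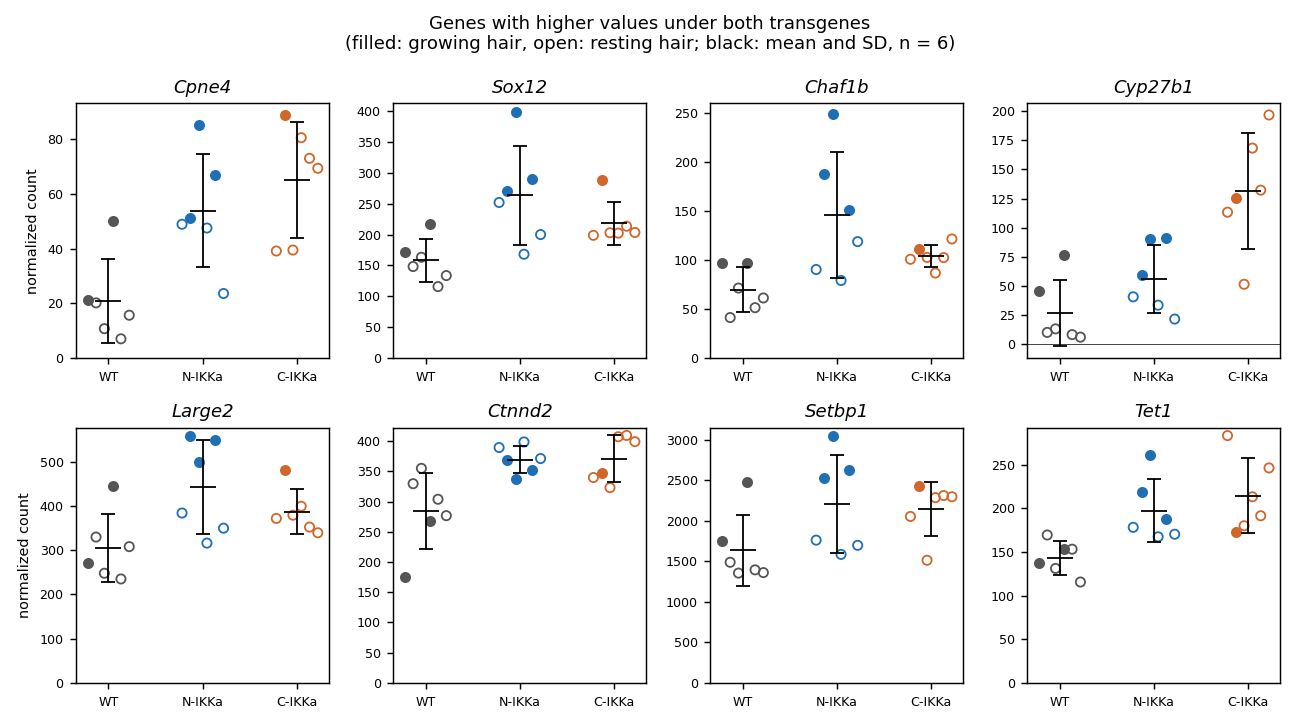
Normalized counts (y axis) of the 8 higher genes in each library, grouped as WT, N-IKKα and C-IKKα, with filled points for growing and open points for resting hair and bars for mean and SD (n = 6). WT 4, the upper filled WT point of most panels, overlaps the transgenic values in 6 of the 8 genes, and Tet1 shows the cleanest gap.

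Lower values in both transgenes were smaller in size. Srxn1 (ENSMUSG00000032802.9), sulfiredoxin, reactivates oxidised peroxiredoxins and is a classical target of the antioxidant factor NRF2 and of AP-1, whose motifs its printed promoter holds. Its counts were 466 to 1329.5 (median 566) in WT, 328 to 689 (median 423) in N-IKKα and 355 to 571 (median 391) in C-IKKα. The growing libraries WT 1 and WT 4 held 1329.5 and 1059 counts and no transgenic library exceeded 689. Pooled, the log2 fold change was −0.68 (SE 0.14, limma adjusted p = 0.384), or −0.43 among resting and −1.18 among growing libraries, with −0.73 in N-IKKα and −0.62 in C-IKKα. Antioxidant genes had both signs. Of 13 measured oxidative stress genes 7 were positive and 6 negative (median 0.01), and 0 were higher and 2 lower at an unadjusted p below 0.05, Srxn1 and the haem-degrading enzyme gene Hmox1 (−0.44 (SE 0.19, limma adjusted p = 0.712)).

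Dusp10 (ENSMUSG00000039384.9), a phosphatase that switches off the stress kinases JNK and p38, had counts of 409 to 753 (median 477) in WT, 233 to 418 (median 332) in N-IKKα and 290.0 to 441 (median 341) in C-IKKα. In 10 of 12 transgenic libraries it lay below every WT library, and WT 3 was far above the other WT libraries. It gave a pooled log2 fold change of −0.56 (SE 0.13, limma adjusted p = 0.487), with −0.63 in N-IKKα and −0.50 in C-IKKα. Hspb8 (ENSMUSG00000041548.5), a small heat shock protein that clears misfolded proteins, had counts of 3199 to 5505 (median 4285) in WT, 2762 to 3817 (median 3303) in N-IKKα and 2733 to 3924 (median 3053) in C-IKKα. WT 4 lay among the transgenic values and the other 5 WT libraries above all of them. Its pooled log2 fold change was −0.40 (SE 0.10, limma adjusted p = 0.487).

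Cln8 (ENSMUSG00000026317.8), a receptor that carries lysosomal enzymes out of the endoplasmic reticulum, had counts of 1078 to 1444 (median 1202) in WT, 921 to 1189.6 (median 1012) in N-IKKα and 939 to 1061 (median 1012) in C-IKKα, and 10 of 12 transgenic libraries lay below every WT library. Its pooled log2 fold change was −0.27 (SE 0.06, limma adjusted p = 0.459). Hook3 (ENSMUSG00000037234.18) links endosomes to the motor dynein. Its counts were 1361 to 1695 (median 1536) in WT, 1269 to 1516 (median 1341) in N-IKKα and 1239 to 1428 (median 1262) in C-IKKα and its pooled log2 fold change was −0.21 (SE 0.05, limma adjusted p = 0.487). Rnf11 (ENSMUSG00000028557.11), a RING protein that works with TNFAIP3 to restrain NF-kB signalling, had counts of 3105 to 4357 (median 3619.9) in WT, 2730.0 to 3499 (median 2948) in N-IKKα and 2937 to 3703 (median 3052) in C-IKKα and a pooled log2 fold change of −0.24 (SE 0.06, limma adjusted p = 0.487). In Hook3 and Rnf11 the growing library WT 4 was the lowest of WT, and 9 and 7 transgenic libraries lay below it.

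Dhx32 (ENSMUSG00000030986.14), a DEAH-box protein related to RNA helicases, had the smallest p of the lower genes although its log2 fold change was small. Counts were 449.8 to 629 (median 566) in WT, 384 to 516 (median 445) in N-IKKα and 399 to 498 (median 484) in C-IKKα. Growing libraries were the lowest of each group, and the 4 growing transgenic libraries lay below every WT library. The pooled log2 fold change was −0.26 (SE 0.05, limma adjusted p = 0.181), with −0.25 among resting and −0.28 among growing libraries. Glo1-ps (ENSMUSG00000075391.7), a pseudogene of the glyoxalase gene Glo1, had counts of 662 to 742 (median 686) in WT, 519 to 642 (median 572) in N-IKKα and 521 to 685 (median 556) in C-IKKα and a pooled log2 fold change of −0.26 (SE 0.06, limma adjusted p = 0.487). Its parent Glo1 was listed at 0 in all 18 libraries, so which of the 2 copies the reads came from cannot be told from the table.

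**Figure D3:**
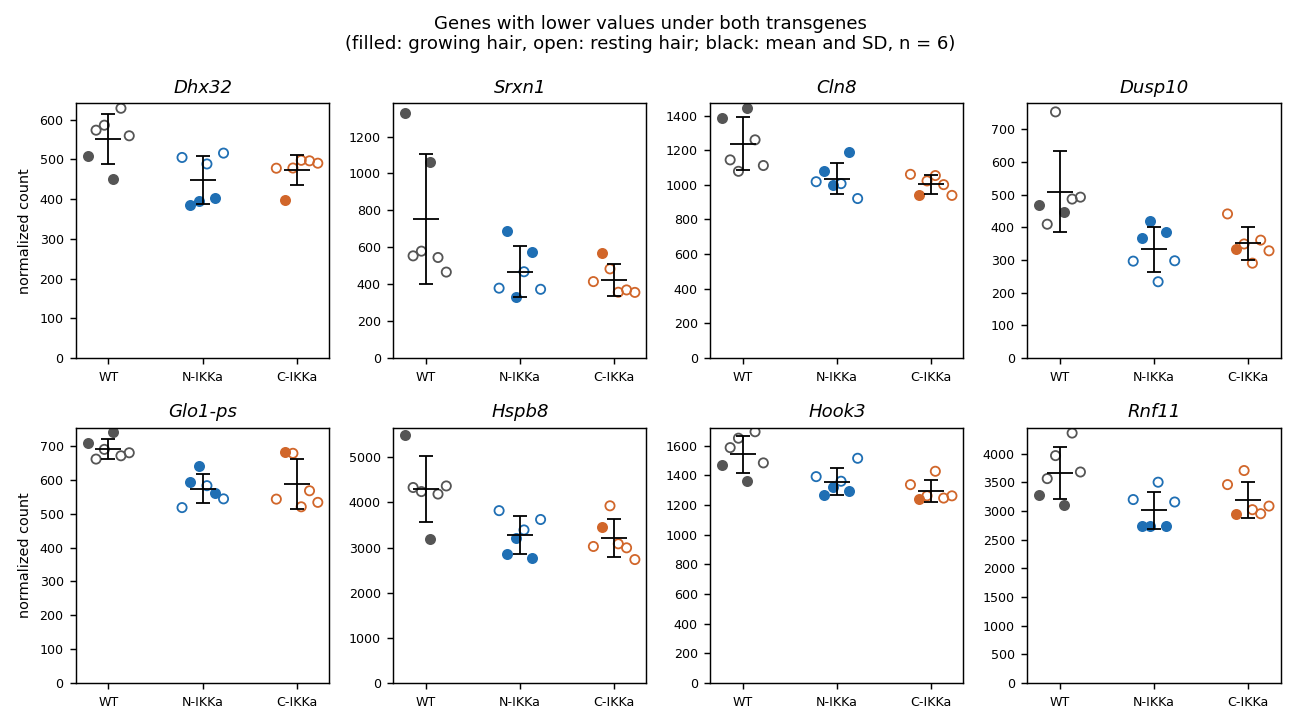
Normalized counts (y axis) of the 8 lower genes in each library, grouped as WT, N-IKKα and C-IKKα, with filled points for growing and open points for resting hair and bars for mean and SD (n = 6). In Cln8, Dusp10 and Glo1-ps 10 of the 12 transgenic points lie below all WT points, and in Srxn1 the 2 filled WT points stand far above the rest.

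Complete separation of the groups was rare. All 12 transgenic libraries lay above all 6 WT libraries in 3 of 17667 genes (0.017%) and below them in 0 (0%). One was Ica1, an islet autoantigen of secretory vesicles, at 109 to 145 normalized counts in WT and 157 to 331 in transgenic skin. Its pooled log2 fold change was 0.68 (SE 0.17, limma adjusted p = 0.496), with 0.34 in N-IKKα and 1.02 in C-IKKα, and the transgenes differed from each other (limma adjusted p = 0.024). The others were the gene models Gm29666 (38.3 to 56.4 in WT, 63.7 to 87.1 in transgenic skin; 0.57 (SE 0.11, limma adjusted p = 0.231)) and BC051226 (11.7 to 31.2 and 34.2 to 74.4; 0.87, SE 0.20, limma adjusted p = 0.487). Gm29666 was almost equal in the 2 transgenes, with 0.57 in N-IKKα and 0.57 in C-IKKα, and DESeq2 called it (adjusted p = 0.0259).

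A limma fit with 3 group means, in which the spread within each transgene sets the error, called 20 genes higher (0.113%) and 0 lower (0%) for the mean of the 2 transgenic effects. Among the 20, Ccl1, H2-T3, Gm6999, Gm48709 and Gm47662 had no WT library at 10 or more normalized counts. They passed the filter only through the transgenic libraries. Of the 20, 16 differed between N-IKKα and C-IKKα at an adjusted p below 0.05, and 8 had an unadjusted p below 0.05 against WT in both groups. Of the 16 genes named for the shared effect, this mean was called in 4. They were Cpne4 (limma adjusted p = 0.0111), Sox12 (0.0253), Chaf1b (0.0431) and Cyp27b1 (0.00894), and only Cyp27b1 differed between the transgenes. These genes were chosen on the same libraries, so this is a description. On the same 17667 genes, edgeR called 12 higher and 0 lower for this mean, and DESeq2 65 higher and 15 lower. Pglyrp2, an amidase that cuts bacterial peptidoglycan, was at 6.85 to 17.5 (median 12.6) in WT, 17.4 to 33.1 (median 30.4) in N-IKKα and 148 to 763 (median 531) in C-IKKα. It rose in C-IKKα (log2 fold change 5.004, limma adjusted p = 8.61e-07), while the N-IKKα difference of 1.21 had an adjusted p of 0.798 by limma. Even so, 11 of 12 transgenic libraries lay above all 6 WT libraries.

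The chemokine gene Ccl1 had a similar shape at low counts: 0 to 3.02 (median 2.36) in WT, 0.932 to 15.0 (median 5.9) in N-IKKα and 18.4 to 74.9 (median 48.8) in C-IKKα. In 10 of 12 transgenic libraries it lay above all WT libraries, none of which exceeded 3.02. The log2 fold changes were 1.27 in N-IKKα and 3.83 in C-IKKα. H2-T3, a nonclassical class I gene, was at 0 to 8.42 (median 2.26) in WT, 3.13 to 12.3 (median 6.53) in N-IKKα and 11.9 to 45.3 (median 25.3) in C-IKKα, with log2 fold changes of 1.60 in N-IKKα and 2.97 in C-IKKα. These 2 genes were chosen after their values were seen. No WT library reached the filter minimum of 10 in either, so they were tested only through their transgenic libraries, and their values are a description with no test. Cdh9, a classical cadherin, was the reverse case, at 4.03 to 20.2 (median 13.8) in WT, 45.7 to 173 (median 122) in N-IKKα and 10.3 to 20.9 (median 13.5) in C-IKKα. It rose in N-IKKα alone among the single comparisons (log2 fold change 3.23, limma adjusted p = 2.27e-05, against 0.10 in C-IKKα), and the transgenes differed by 3.13 (limma adjusted p = 2.67e-05).

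Among the 7 lower genes that DESeq2 called, 5 were named above, and the other 2 were named after their values were seen. Serpinb2, a protease inhibitor of differentiating keratinocytes, was at 1077 to 2500.4 (median 1964) in WT, 731 to 1641 (median 1212) in N-IKKα and 1128 to 1639 (median 1493) in C-IKKα (pooled log2 fold change −0.55 (SE 0.14, limma adjusted p = 0.487)), and 12.4% of its exon bases overlap Serpinb10 on the same strand. Lincmd1, a long noncoding RNA of muscle differentiation, was at 24.0 to 680.4 (median 346) in WT, 25.2 to 79.3 (median 58.9) in N-IKKα and 46.2 to 237 (median 87.9) in C-IKKα (pooled log2 fold change −1.68 (SE 0.52, limma adjusted p = 0.635)). WT 4 held 24.0 counts of it, the lowest of all libraries, so the groups overlapped.

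Chuk itself was read as a check of the transgenes. Chuk (ENSMUSG00000025199.17) had normalized counts of 851 to 1267 (median 989) in WT, 804 to 1050.2 (median 1021) in N-IKKα and 853 to 934 (median 885) in C-IKKα. Most libraries of the 3 groups overlapped, with WT 4 the highest, and the pooled log2 difference was −0.09 (SE 0.07, 95% limits −0.24 to 0.05). An exact two-sided permutation test within hair states gave p = 0.176 (adjusted 0.176 over 2 genes). The table does not separate transgene from endogenous transcripts, and whether the exogenous sequence is counted under Chuk was not tested, so this value does not check the labels.

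The partners of IKKα in the kinase complex had small, parallel values. Ikbkg, which encodes the scaffold NEMO, was at 1105 to 1295 (median 1156) in WT, 949.7 to 1174 (median 1003) in N-IKKα and 940.0 to 1150.2 (median 1025) in C-IKKα. In 9 of 12 transgenic libraries it lay below every WT library, and the pooled log2 fold change was −0.18 (SE 0.06, limma adjusted p = 0.635), equal at −0.18 in both groups. Its exons overlap G6pdx on the opposite strand over 5.15% of their bases. Ikbkb, encoding IKKβ, was at 1187 to 1395 (median 1310.1) in WT, 1219.7 to 1593 (median 1339) in N-IKKα and 1307 to 1598 (median 1496) in C-IKKα, with 6 transgenic libraries above every WT library and a pooled log2 fold change of 0.13 (SE 0.05, limma adjusted p = 0.677).

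Of 29 measured IKK and NF-kB pathway components 21 had positive values (median 0.10, against 50.8% positive and a median of 0.003 over all genes tested). Limma called 0 of them, and 6 were higher and 1 lower at an unadjusted p below 0.05. Only 10 were positive and 6 negative in both transgenes. Several subunits and inhibitors of NF-kB had their larger values in C-IKKα. Nfkb2, the precursor of p52, had log2 fold changes of 0.21 in N-IKKα and 0.93 in C-IKKα, Relb, its partner, of −0.01 in N-IKKα and 1.02 in C-IKKα, and the inhibitor gene Nfkbie of 0.05 in N-IKKα and 1.36 in C-IKKα. N-IKKα and C-IKKα differed in Relb (limma adjusted p = 0.00113) and Nfkbie (limma adjusted p = 0.00245), and Nfkb2 did not pass that test (limma adjusted p = 0.238). The adaptor Traf3, which holds back the noncanonical pathway, differed too (limma adjusted p = 0.0341), at 0.05 in N-IKKα and 0.48 in C-IKKα.

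**Figure D4:**
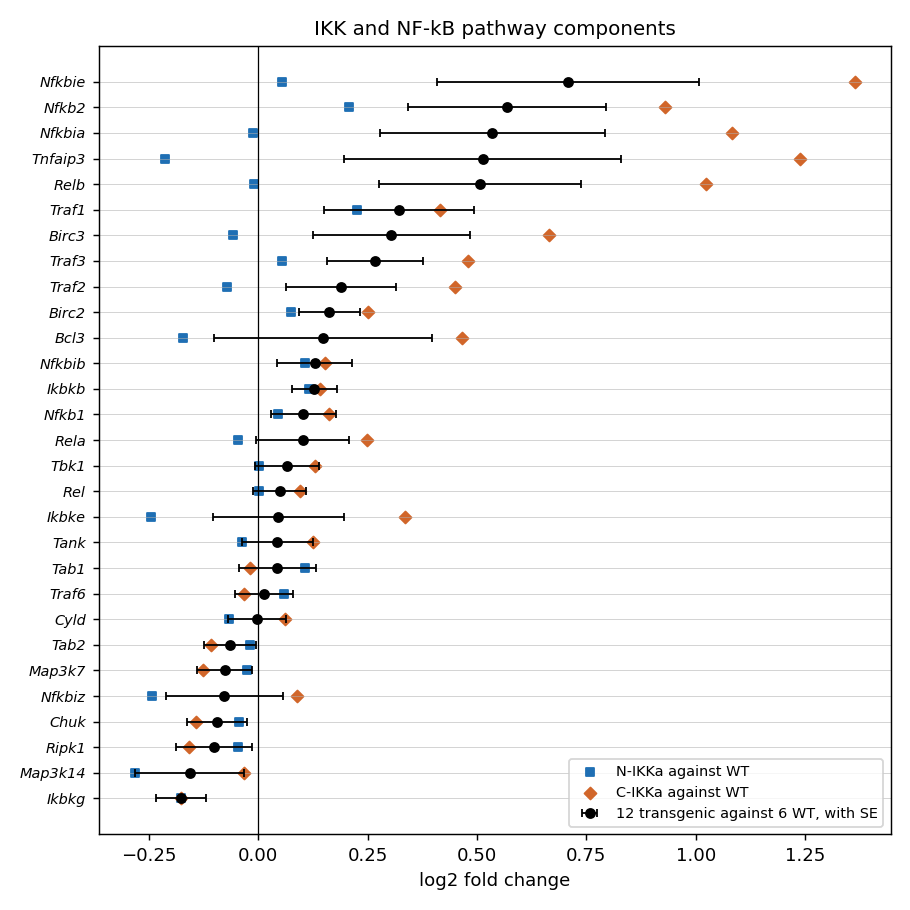
Log2 fold change against WT (x axis) of 29 IKK and NF-kB pathway genes (rows) for the pooled 12 transgenic libraries with SE (black), N-IKKα (blue) and C-IKKα (orange). The symbols coincide for Ikbkg and Ikbkb and lie far apart for Nfkbie, Nfkbia, Tnfaip3 and Relb, where the pooled value averages a C-IKKα difference with an N-IKKα value near or below 0.

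NF-kB target genes split the same way. Of 20 measured, 11 were positive in the pooled comparison (median 0.08), with 3 higher and 1 lower at an unadjusted p below 0.05, and the medians were −0.09 in N-IKKα and 0.47 in C-IKKα. Nfkbia, the inhibitor IκBα, was at 548 to 1340.2 (median 992) in WT, 617 to 1198 (median 832) in N-IKKα and 1411 to 2682 (median 1975) in C-IKKα, and Tnfaip3, the deubiquitinase A20, at 410.2 to 609.9 (median 471) in WT, 308 to 538 (median 393) in N-IKKα and 666 to 1736 (median 1351) in C-IKKα. The leukocyte adhesion gene Icam1 was at 268 to 469.7 (median 444) in WT, 279.5 to 583 (median 441) in N-IKKα and 636 to 1362 (median 1109) in C-IKKα. Of these 3 genes only Icam1 is one of the 20, and Nfkbia and Tnfaip3 were counted with the pathway components above. In all 3 genes every C-IKKα library lay above every WT library, while the N-IKKα libraries overlapped WT. The differences between the transgenes were −1.09, −1.45 and −1.13 (limma adjusted p = 0.00516, 0.000446 and 0.00217). Outside both lists, Spib, an Ets factor, and Cxcl9, an interferon-induced chemokine, showed the same split. Their log2 fold changes were 0.58 in N-IKKα and 4.53 in C-IKKα for Spib and 0.04 in N-IKKα and 3.69 in C-IKKα for Cxcl9. Negative values under both transgenes were seen in 3 of the 20, Bcl2l1, Ier3 and the prostaglandin synthase gene Ptgs2, and none passed the test. Ptgs2 was at 59.4 to 203 (median 90.9) in WT, 40.7 to 96.0 (median 54.5) in N-IKKα and 55.5 to 107 (median 62.5) in C-IKKα with a pooled log2 fold change of −0.61 (SE 0.22, limma adjusted p = 0.668).

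Cell cycle genes had positive values almost throughout. Of 29 measured, 28 were positive in the pooled comparison, and the same count of 28 was positive in N-IKKα and in C-IKKα against the shared WT libraries. The median was 0.26 (0.30 in N-IKKα and 0.23 in C-IKKα), 6 were higher and 0 lower at an unadjusted p below 0.05, and limma, edgeR and DESeq2 called 0. Over all genes tested, 50.8% were positive, 3.98% higher and 2.76% lower by the same counts. The genes that license replication led them. Mcm6, a subunit of the MCM helicase, was at 137 to 368 (median 226) in WT, 194 to 643 (median 374) in N-IKKα and 221 to 340.2 (median 275) in C-IKKα, with a pooled log2 fold change of 0.42 (SE 0.13, limma adjusted p = 0.635). In every group the growing libraries held the highest Mcm6 counts, and the groups overlapped. Mcm3 gave 0.44 (SE 0.16, limma adjusted p = 0.668) and Mcm5 0.41 (SE 0.15, limma adjusted p = 0.668). The licensing factor gene Cdc6 gave 0.53 and the S phase regulator E2f1 0.31. The proliferation marker Mki67 was at 822 to 5461 (median 1546) in WT, 860.4 to 8959 (median 3515) in N-IKKα and 1138 to 2866 (median 1369) in C-IKKα and gave 0.26 (SE 0.22, limma adjusted p = 0.868). One member was negative, the mitotic kinase gene Aurka (−0.16). Of 17 cell cycle inhibitors and p53 targets 7 were positive (median −0.05), with 0 at an unadjusted p below 0.05.

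Cdkn2a, which encodes the inhibitor p16 and lay below the filter, was at 1.01 to 9.07 (median 5.29) in WT, 1.85 to 6.26 (median 3.18) in N-IKKα and 9.79 to 33.1 (median 20.7) in C-IKKα. Its C-IKKα libraries all lay above WT and its N-IKKα libraries within WT, and the pooled difference of 0.86 had an exact two-sided permutation p of 0.167 (adjusted 0.176).

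No keratin or other structural gene of keratinocytes was called by limma in the pooled comparison. Krt5 and Krt14, keratins of the basal layer, averaged 28302 ± 3029 and 12298 ± 2777 normalized counts in WT (SD, n = 6) and 28884 ± 4723 and 11263 ± 1723 in transgenic skin (n = 12). Krt5 gave a pooled log2 fold change of 0.02 (SE 0.10) and Krt14 one of −0.11 (SE 0.12). Krt1 and Krt10, of the differentiating layers, gave −0.14 (SE 0.25) and 0.01 (SE 0.20). Each of these 4 values changed sign under at least 1 other setting. The 95% limits keep Krt5 and Krt14 within −0.37 to 0.23. Of 13 basal genes 5 were positive (median −0.01) and of 24 suprabasal and cornified genes 7 (median −0.10). Within that list Krt2, a keratin of the upper spinous layers, went the other way, at 14.1 to 36.3 (median 23.3) in WT, 25.6 to 64.3 (median 47.5) in N-IKKα and 46.6 to 162 (median 81.6) in C-IKKα. In 10 of 12 transgenic libraries it lay above every WT library, the pooled log2 fold change was 1.36 (SE 0.33, limma adjusted p = 0.487), and DESeq2 called it (adjusted p = 0.0288). Krt16, a keratin of stressed epidermis, differed between the transgenes by −3.03 (limma adjusted p = 0.00265), with −0.68 in N-IKKα and 2.35 in C-IKKα against WT. Of 10 measured stress-induced keratinocyte genes 2 were positive (median −0.25). Of 12 EGF receptor family genes and ligands 2 were positive (median −0.12), and Egfr itself gave 0.07 (SE 0.09, limma adjusted p = 0.937). The 16 measured barrier lipid genes had 2 positive values and a median of −0.09. Abhd5, a co-activator of lipid droplet lipolysis, was at 914 to 1136 (median 969.7) in WT, 757 to 925 (median 875) in N-IKKα and 832 to 1017 (median 867) in C-IKKα. In 10 of 12 transgenic libraries it lay below every WT library (pooled log2 fold change −0.20 (SE 0.06, limma adjusted p = 0.635)). Tgm5, of the same list, went the other way, with a pooled log2 fold change of 0.49 (SE 0.16, limma adjusted p = 0.635).

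Of 24 measured Wnt pathway genes 18 were positive (median 0.12), with 5 higher and 1 lower at an unadjusted p below 0.05. Over all genes tested, 50.8% were positive, 3.98% higher and 2.76% lower. The Wnt medians were 0.20 in N-IKKα and −0.01 in C-IKKα, where 19 and 11 were positive, and 11 were positive in both. Lef1, the transcription factor of the Wnt response in hair, was at 57.3 to 1845 (median 111) in WT, 112 to 2524 (median 1089.6) in N-IKKα and 141 to 1023 (median 219.6) in C-IKKα. Growing libraries held the highest counts of each group, and with hair state in the fit the pooled log2 fold change was 0.90 (SE 0.26, limma adjusted p = 0.583). Lef1 is itself in the list that set the hair state, so its higher counts in growing libraries are partly built in. The secreted antagonist gene Wif1 gave 1.16 (SE 0.38, limma adjusted p = 0.635), and its transgenes differed (limma adjusted p = 0.00633), at 0.36 in N-IKKα and 1.96 in C-IKKα. The ligand gene Wnt10b gave 0.65. The hair shaft list, which set the hair state, is not a result here (median 0.14).

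Circadian clock genes had values of both signs, and limma called 0 of them. Of 14 measured, 10 were positive, 4 higher and 2 lower at an unadjusted p below 0.05 (median 0.23). The output factor gene Dbp was at 84.7 to 1495 (median 493) in WT, 237 to 1643 (median 698) in N-IKKα and 804 to 1583 (median 1276) in C-IKKα (0.88 (SE 0.32, limma adjusted p = 0.668)), and 18.0% of its exon bases overlap Sphk2 on the opposite strand. The repressor genes Nr1d1 and Nr1d2 gave 0.42 and 0.29, while their target Arntl, the clock's activator, gave −0.42 (SE 0.16, limma adjusted p = 0.668) and Cry1 −0.29 (SE 0.11, limma adjusted p = 0.668). All groups overlapped in Dbp and Arntl, and the hour at which skin was taken is not given in the labels.

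Several immune lists had larger medians in C-IKKα than in N-IKKα, a difference that was tested for single genes only. All 12 measured class I antigen presentation genes were positive in the pooled comparison (median 0.30), with 2 higher at an unadjusted p below 0.05, but the medians were −0.05 in N-IKKα and 0.64 in C-IKKα, where 3 and 12 were positive. The peptide transporter gene Tap1 differed between the transgenes (limma adjusted p = 0.0402), at 0.06 in N-IKKα and 0.62 in C-IKKα. Langerhans, dendritic and class II genes had 13 of 16 positive (median 0.19, or 0.04 and 0.37 in the single groups), T and cytotoxic lymphocyte genes 13 of 16 (median 0.13), and 3 of 4 measured B and plasma cell genes were positive (median 0.64). At an unadjusted p below 0.05, 1 T and cytotoxic lymphocyte gene was lower and 1 higher. These were Trbc2, at −0.45 (SE 0.14, limma adjusted p = 0.635), with the smallest p of that list, and Zap70, at 0.61 (SE 0.26, limma adjusted p = 0.699). Interferon-stimulated genes had 20 of 27 positive (median 0.09, or −0.12 and 0.26). Macrophage and monocyte genes had 2 of 14 positive (median −0.12), mast cell genes 1 of 9 (median −0.36) and both measured neutrophil genes were negative.

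Vessel and muscle markers mostly had negative values. Of 12 endothelial genes 0 were positive (median −0.12), and of 18 skeletal muscle genes 1 was (median −0.18, or −0.42 in N-IKKα and 0.00 in C-IKKα). The mean log2 level of the muscle list ran from 8.98 to 12.3 in WT and 10.1 to 12.0 in transgenic libraries, so the ranges overlapped. Adipocyte genes (5 of 13 positive, median −0.04), fibroblast genes (10 of 16, 0.06), Schwann cell genes (4 of 10, −0.05), erythrocyte genes (1 of 3, −0.02) and sebaceous gland genes (10 of 17, 0.02) had pooled medians within 0.1 of 0. In N-IKKα and C-IKKα singly, the medians were −0.24 and 0.27 for sebaceous gland genes. They were −0.19 and 0.14 for adipocyte genes and −0.36 and 0.21 for erythrocyte genes, so these pooled values average opposite signs. Melanocyte genes were positive in 8 of 9, with a median of 0.27 (0.45 in N-IKKα and 0.09 in C-IKKα), and 1 was higher at an unadjusted p below 0.05. Whether tissue composition took part in any value above was not tested.

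Mitochondrially encoded genes were negative in 11 of 11 measured (median −0.14, −0.16 in N-IKKα and −0.11 in C-IKKα), with 3 lower at an unadjusted p below 0.05. The ATP synthase subunit gene mt-Atp6 was at 721 to 1472 (median 925) in WT, 606 to 857 (median 768) in N-IKKα and 568 to 944 (median 739) in C-IKKα (−0.40 (SE 0.14, limma adjusted p = 0.668)), mt-Co2 gave −0.40 (SE 0.16, limma adjusted p = 0.677) and mt-Co3 −0.36 (SE 0.15, limma adjusted p = 0.683). WT 3 and WT 5 held the highest counts of mt-Atp6 and mt-Co2, and 6 and 5 transgenic libraries lay below every WT library. The median was 0.15 for Notch genes, 0.00 for TGF-beta genes, −0.06 for vascular growth factors, −0.01 for cholesterol synthesis, 0.04 for heat shock genes, −0.10 for immediate early genes and 0.04 for ribosomal proteins. Over all lists, 570 different genes were measured. Limma and edgeR called 0 of them, DESeq2 called Srxn1 and Krt2, and 41 were higher and 15 lower at an unadjusted p below 0.05, or 7.19% and 2.63%. Over all genes tested these shares were 3.98% and 2.76%, and genes of the lists were chosen with earlier results known.

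**Figure D5:**
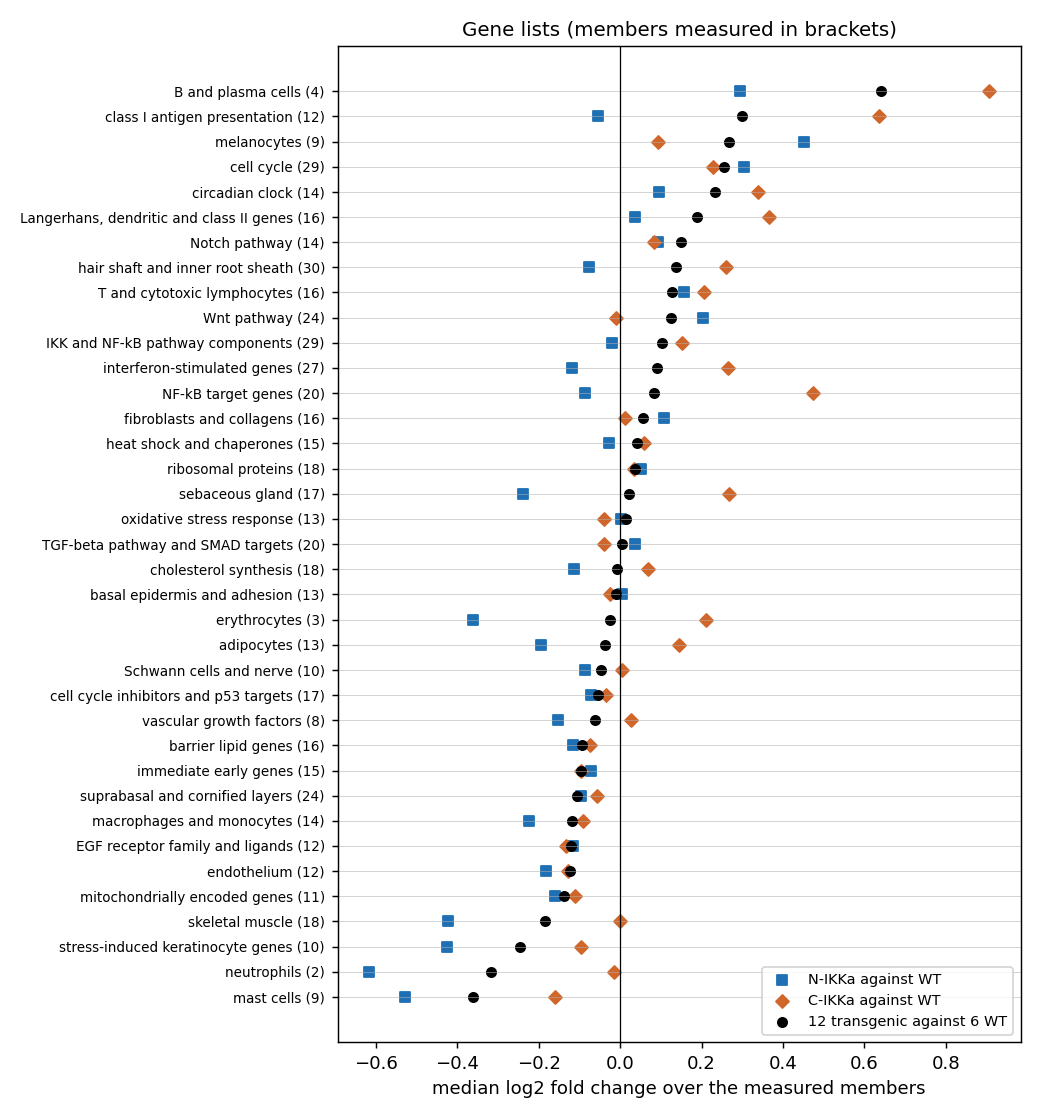
Median log2 fold change over the measured members of each gene list (x axis) for the pooled comparison (black), N-IKKα (blue) and C-IKKα (orange) against WT. The 3 symbols lie close together for cell cycle genes, at 0.23 to 0.30, and for mitochondrially encoded genes, at −0.16 to −0.11, and far apart for class I, NF-kB target and sebaceous gland genes.

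Base composition differed between the higher and the lower genes. The median GC content of the longest transcript was 49.4% over all genes tested, 52.7% over the 142 genes higher in both transgenes and 45.2% over the 103 lower in both. Of 5 equal bins of genes by GC content, the median pooled change was −0.02 in the lowest bin and 0.04 in the highest. WT 5 had the widest spread of the 18 libraries, with the highest bin 0.32 below the lowest on the log2 scale; C-IKKα 14 and 15 had the opposite tilt, at 0.19 and 0.20. With each library's values adjusted for GC content, an alternative added after seeing the data, 134 genes were higher and 90 lower in both, of which 110 and 74 were among the first sets, and their median GC was 49.99% and 50.6%. The adjustment takes the trend on GC out of each library, so the closer medians follow from it and are no separate result. The 16 named genes, which were chosen on these same libraries, kept their sign. They lay at 0.39 to 2.10 for the higher and −0.69 to −0.18 for the lower genes, and limma again called 0 genes.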

How the data were processed

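Each of 18 mice gave 1 library of back skin RNA, made with a stranded mRNA kit per the labels' protocols. Reads were counted with featureCounts on GRCm39, per the submitters' processing notes; the aligner, annotation and scaling tool are not given in the sources used here. Signal values (normalized counts) of 55357 genes in each of the libraries were deposited. Every non-zero value was a whole multiple of 1 step per library within 0.001 reads (100% of values), so read counts were recovered for edgeR and DESeq2. A listed 0 allows up to 3 counts, for counting error only. Recovered depth was 11.1 to 15.7 M reads. Genes with at least 10 normalized counts in at least 6 libraries were tested on log2(value + 1) with limma 3.58.1 in R 4.3.3 (empirical Bayes with a trend), pooled transgenic against WT with hair state as covariate (15 residual degrees of freedom), and in a fit with 3 group means. Fold changes are on this log2 scale, which understates those of low genes. P values are two-sided, Benjamini-Hochberg adjusted over all genes, called below 0.05. Chuk and Cdkn2a were compared by exact permutation within hair states (7425 permutations). edgeR 4.0.16 (quasi-likelihood) and DESeq2 1.42.0 were alternatives, with others on scaling, filter, pseudocount, covariates and each library left out. The fits were tested on simulated data.

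The members, the 38 gene lists and the tests were chosen with earlier results of these data known. Genes named are the 8 per direction given in the text, 17 fixed genes and members of the lists. The plan for each list was up to 4 called members or the 2 with the smallest p. It was not followed throughout, and several lists have fewer members named or none. Other genes were named after their values were seen. Rows without a symbol held 0.000724% of normalized counts. Exon overlaps, GC content and transcript length came from an annotation of the earlier build GRCm38, matched by identifier, and promoters from RefSeq (10 of the 16 named genes matched).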

Additional observations from a re-analysis of the deposited data

Results flagged for a closer look

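The 33 genes examined here are the 16 named for the shared effect and the 17 fixed ones. In 9 of 99 gene and group combinations 1 library lay far from the other 5. The cut used flags about 1 in 20 groups drawn from a single population. These groups mix growing and resting hair, the same libraries recur across genes, and 16 of the genes were chosen by these values. The share flagged can therefore not be set against that rate. WT 4 accounted for 3: it was the highest WT library in Cpne4 (50.2 normalized counts) and Setbp1 (2476) and the lowest in Icam1 (268). C-IKKα 14, the growing library of its group, was the highest in Sox12 (289) and the lowest in Dhx32 (399). WT 3 was the highest in Dusp10 (753) and WT 1 in Krt16 (1351). N-IKKα 7 was the lowest in Chuk (804) and N-IKKα 9 in Krt14 (7771).

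In 9 of these genes N-IKKα and C-IKKα differed by limma at an adjusted p below 0.05, so a single pooled value does not describe both. C-IKKα was higher in Cyp27b1 (log2 difference −1.78, N-IKKα minus C-IKKα), Krt16 (−3.03), Nfkbia (−1.09), Tnfaip3 (−1.45), Icam1 (−1.13), Pglyrp2 (−3.79), Spib (−3.94) and Cxcl9 (−3.65). N-IKKα was higher in Cdh9 (3.13).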

How the results depend on the processing

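The pooled count of 0 genes higher became 16 with DESeq2 and 20 with 3 group means, and the 0 lower became 7 with DESeq2; leaving out 1 library gave 0 to 1 in each direction, the 1 being Cpne4 and Ppp1r3c without WT 4. Genes called and moved the same way by both transgenes numbered 13 higher and 7 lower with DESeq2, 8 higher with 3 group means, and 0 to 1 in each direction with 1 library left out. The 16 and 13 higher with DESeq2 and the 20 with 3 group means include genes that passed the filter only through the transgenic libraries. Called in both single comparisons were 2 higher with DESeq2, Chaf1b and Sox12. At an unadjusted p below 0.05 in both, the 142 higher became 63 without the hair covariate; the 103 lower became 51 without it, 187 with no filter, 414 among resting libraries alone and 71 to 249 with 1 library left out (C-IKKα 16 and WT 4). The 1 named gene that differed between the transgenes, Cyp27b1, became 0 with no filter, without the hair covariate, among resting libraries, with values adjusted for GC, and in 13 of the 18 runs that left out 1 library (range 0 to 1). All 16 named genes kept their sign in every alternative run. They were chosen for that sign and a small p on the same libraries, so this is no independent check. Krt5 turned to −0.0165 with a sex covariate and −0.0118 with GC adjustment, and ran from −0.0626 to 0.0785 with 1 library left out. Krt14 turned to 0.135 and Krt1 to 0.0206 among resting libraries, and Krt1 ran from −0.34 (without WT 4) to 0.158 (without WT 1). Krt10 turned to −0.0283 with edgeR, −0.0303 with DESeq2, −0.0546 among resting libraries, −0.0142 with a sex covariate, −0.0689 with array weights and −0.00232 with GC adjustment, and ran from −0.20 to 0.182 with 1 library left out. The Notch median of 0.15 became 0.0347 with array weights and ran from 0.041 to 0.175 with 1 library left out. The oxidative stress median of 0.01 became −0.0587 among resting libraries and ran from −0.0746 (without WT 4) to 0.0299. The cause of these shifts was not tested. Cdh9 gave no value under a filter of 50. No paired analysis was possible because the replicate numbers run from 1 to 18 without any shared between groups.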
